A study of Homo sapiens with 10 samples.

Results

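Wild-type MYC was mapped in U2OS cells, a human osteosarcoma line, and 457 of its 4749 peaks had their summit more than 50 kb from both ends of every protein-coding gene. They were chosen by position alone: the summit in the wild-type (WT) peak list was set against the ends of 20052 protein-coding genes of the GRCh38.p14 RefSeq table. The coordinates are hg38. The rule measures distance to gene ends, not to genes, and 195 of the 457 summits (42.7%, Wilson 95% interval 38.2 to 47.2%) lay inside the span of a long protein-coding gene, against 62.9% of all WT peaks. They are therefore called distant peaks here, meaning distant from the ends of protein-coding genes, and the other 4292 WT peaks are the comparison. The 3 peaks just inside the limit lay 50142 bp from SKOR1, 50510 bp from CEBPB and 50776 bp from CRLF3, with WT folds of 4.13, 3.98 and 3.38. The 3 just outside lay 49875 bp from ERGIC1, 49748 bp from SLIT3 and 49680 bp from C8orf33, with WT folds of 11.3, 6.17 and 3.05.

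The cells lacked endogenous MYC by knockout and carried a FLAG-tagged MYC induced by doxycycline, either the mutant 3A, the mutant 7A or WT, so all 3 proteins were expressed from a transgene in the same line. Induction was with 1 µg/mL doxycycline for 24 h, chromatin bound by the tagged protein was recovered with an antibody to FLAG, and mouse NIH3T3 cells, amounting to 10%, served as the spike-in. The 10 libraries comprise pairs of immunoprecipitates from induced 3A, induced 7A, induced WT and uninduced WT cells, plus a single input of WT cells for either state. The labels do not say which residues 3A and 7A change, nor whether each line is a single clone. Each induced protein has 1 deposited peak list, so there is no spread between replicate lists, and no difference below could be tested across replicates. Intervals are Wilson 95% intervals for shares and order-statistic 95% intervals for medians, and they cover counting within a list only. Neighbouring peaks are not independent. The uninduced libraries and the inputs had no list used here, so no peak was set against the uninduced level, and read totals per library were not used. Fold means the authors' fold enrichment of the immunoprecipitate over the local background at a peak's summit, and folds are compared within a list only.

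The distant peaks lay at starts, inside genes and between genes. A summit within 1 kb of a listed internal transcription start of a protein-coding gene was found for 36 of 424 distant peaks (8.49%). The RefSeq starts used hold several per gene, and those on chromosome 8, which carries the remaining 33 distant peaks, were not used. The background was 58.9% of all WT peaks off chromosome 8, counted at any listed coding start. The distance rule removes summits near starts at gene ends, so the lower share follows from the rule and is not a finding. Of the distant peaks other than these 36, 58 had the summit within 1 kb of an end or a listed start of a non-coding gene. A further 148 lay elsewhere inside a protein-coding gene. A further 55 lay elsewhere inside a non-coding gene, and 160 (35.0% of the 457) lay outside both kinds of gene. Pseudogenes were not used in this sorting, and 19 of the 457 summits lay within 1 kb of a pseudogene end (4.16%, 2.68 to 6.40%), against 1.61% (1.27 to 2.03%) of the other WT peaks and 2.75% (2.03 to 3.70%) of those off chromosome 8 and not at a listed coding start.

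MYC is a basic helix-loop-helix leucine zipper transcription factor that binds DNA as a dimer with MAX, with a preference for the E-box CACGTG. It is best known at the promoters of genes for growth and ribosome production, and when abundant it is also found at enhancers far from promoters. Enhancers can lie between genes or inside introns, and other far sites can be promoters of non-coding RNAs or alternative promoters deep inside a long gene.

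Starts within 1 kb of distant peaks with high folds are shown first. Their windows follow the listed start, not the peak. Among those shown, only the windows of LINC01357, FIRRE and DGLUCY hold the WT summit. Each run is the RefSeq GRCh38.p14 window from 250 bases before to 50 after a listed start, read 5′ to 3′ on the gene's strand, and capitals mark CACGTG. The first 6 belong to the non-coding genes with the highest WT folds among those with a window used here, which leaves out PVT1, TRT-TGT2-1 and LOC102723696. The last 4 are those of the internal protein-coding starts with the highest WT folds.
LOC112267936, chr5:154754971-154755270, minus strand: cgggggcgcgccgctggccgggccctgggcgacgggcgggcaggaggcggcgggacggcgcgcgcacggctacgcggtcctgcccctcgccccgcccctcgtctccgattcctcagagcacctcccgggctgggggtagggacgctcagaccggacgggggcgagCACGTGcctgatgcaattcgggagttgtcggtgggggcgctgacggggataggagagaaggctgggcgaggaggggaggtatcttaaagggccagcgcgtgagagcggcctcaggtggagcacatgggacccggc
LINC00839, chr10:42475241-42475540, plus strand: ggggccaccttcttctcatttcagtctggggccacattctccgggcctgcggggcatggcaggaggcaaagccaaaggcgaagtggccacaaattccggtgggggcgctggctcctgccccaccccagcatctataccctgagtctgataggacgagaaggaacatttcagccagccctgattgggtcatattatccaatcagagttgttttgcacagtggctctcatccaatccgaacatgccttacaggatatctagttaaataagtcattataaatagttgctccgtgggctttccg
LINC01357, chr1:112849607-112849906, plus strand: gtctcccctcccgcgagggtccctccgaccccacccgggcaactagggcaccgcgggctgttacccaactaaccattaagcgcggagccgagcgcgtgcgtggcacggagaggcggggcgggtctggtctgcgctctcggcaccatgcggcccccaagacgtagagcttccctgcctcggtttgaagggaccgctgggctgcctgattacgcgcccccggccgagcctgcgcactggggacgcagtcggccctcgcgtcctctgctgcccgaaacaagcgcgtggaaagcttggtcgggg
MIRLET7A1HG, chr9:94166008-94166307, plus strand: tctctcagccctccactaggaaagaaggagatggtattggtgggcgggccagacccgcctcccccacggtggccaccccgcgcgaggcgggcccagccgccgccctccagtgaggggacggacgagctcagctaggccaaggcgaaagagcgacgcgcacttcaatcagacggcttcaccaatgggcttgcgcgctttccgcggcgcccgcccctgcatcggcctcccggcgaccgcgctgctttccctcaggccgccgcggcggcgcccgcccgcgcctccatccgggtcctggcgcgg
FIRRE, chrX:131830594-131830893, minus strand: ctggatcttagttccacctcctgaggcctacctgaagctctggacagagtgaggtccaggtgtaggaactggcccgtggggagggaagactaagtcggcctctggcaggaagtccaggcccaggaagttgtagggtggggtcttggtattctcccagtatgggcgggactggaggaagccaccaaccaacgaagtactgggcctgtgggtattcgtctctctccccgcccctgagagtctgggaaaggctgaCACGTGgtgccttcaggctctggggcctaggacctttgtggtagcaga
LINC03086, chr20:2206678-2206977, plus strand: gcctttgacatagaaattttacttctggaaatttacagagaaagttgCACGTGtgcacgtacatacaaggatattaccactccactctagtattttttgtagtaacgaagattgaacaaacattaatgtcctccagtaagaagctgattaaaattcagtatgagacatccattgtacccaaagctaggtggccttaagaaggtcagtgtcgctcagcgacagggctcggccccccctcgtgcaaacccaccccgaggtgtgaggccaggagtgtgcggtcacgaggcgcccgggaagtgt
LARP1, chr5:154755127-154755426, plus strand: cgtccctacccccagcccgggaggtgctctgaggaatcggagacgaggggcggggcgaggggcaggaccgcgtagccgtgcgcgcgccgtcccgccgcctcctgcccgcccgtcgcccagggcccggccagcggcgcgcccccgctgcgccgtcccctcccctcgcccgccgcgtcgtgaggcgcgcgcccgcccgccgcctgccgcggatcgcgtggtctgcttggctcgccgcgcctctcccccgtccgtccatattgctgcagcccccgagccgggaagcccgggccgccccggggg
PALM2AKAP2, chr9:109779948-109780247, plus strand: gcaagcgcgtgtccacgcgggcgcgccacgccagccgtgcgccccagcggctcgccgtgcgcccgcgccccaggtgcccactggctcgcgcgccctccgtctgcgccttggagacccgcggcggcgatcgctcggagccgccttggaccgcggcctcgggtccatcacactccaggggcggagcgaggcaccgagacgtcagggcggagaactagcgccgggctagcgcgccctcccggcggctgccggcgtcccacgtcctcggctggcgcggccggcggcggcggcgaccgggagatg
RAP1GAP2, chr17:2975411-2975710, plus strand: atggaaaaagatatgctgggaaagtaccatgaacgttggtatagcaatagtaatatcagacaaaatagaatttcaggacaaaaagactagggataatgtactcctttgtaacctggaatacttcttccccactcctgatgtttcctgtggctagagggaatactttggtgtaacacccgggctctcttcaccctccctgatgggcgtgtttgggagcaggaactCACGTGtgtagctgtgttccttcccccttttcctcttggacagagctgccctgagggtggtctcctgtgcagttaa
DGLUCY, chr14:91113823-91114122, plus strand: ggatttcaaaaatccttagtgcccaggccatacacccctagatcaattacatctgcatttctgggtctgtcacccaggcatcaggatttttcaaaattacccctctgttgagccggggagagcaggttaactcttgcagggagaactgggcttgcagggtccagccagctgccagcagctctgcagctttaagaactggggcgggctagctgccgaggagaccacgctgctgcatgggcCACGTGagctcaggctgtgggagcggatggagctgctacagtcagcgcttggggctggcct

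In the DGLUCY window the centre of the CACGTG was 0.5 bp from the WT summit. It was 15.5 bp away in the window of FIRRE, 89.5 bp in that of RAP1GAP2, 158.5 bp in that of LOC112267936 and 668.5 bp in that of LINC03086. The windows of LINC00839, LINC01357, MIRLET7A1HG, LARP1 and PALM2AKAP2 hold no CACGTG, which says only that these letters are not in those 300 bases. Among lncRNA windows with a distant peak within 1 kb of the start, 7 of 53 held CACGTG (13.2%, 6.55 to 24.8%). The share was 13.8% (11.5 to 16.5%) of 745 lncRNA windows with another WT peak and 5.40% (5.02 to 5.80%) of all 12917 lncRNA windows. Among protein-coding windows it was 7 of 46 with a distant peak (15.2%, 7.57 to 28.2%), 16.3% of 3713 with another WT peak and 8.34% of all 22198. The 53 lncRNA windows belong to 49 genes and the 46 protein-coding windows to 36. Windows of the same gene can share a motif, and the intervals count them as separate. CACGCG, a related E-box that like the rest was searched on both strands, was in 8 of the 53 lncRNA windows (15.1%, 7.85 to 27.1%), 28.3% (25.2 to 31.7%) of those with another WT peak and 6.58% of all lncRNA windows. CATGTG, with its reverse CACATG, was in 8 of the 53 (15.1%) and 14.8% of all. None of these motifs holds another, and 1 window can hold several. Median GC content was 63.3% in lncRNA windows with a distant peak, 68.3% in those with another WT peak and 50% in all, and it moves with these shares. Its part in them was not tested.

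Distant peaks were narrower than the other WT peaks. Their median width was 606 bp (591 to 634, quartiles 491 to 812), against 810 bp (797 to 823, quartiles 613 to 1090). The 1493 other peaks off chromosome 8 and not at a listed coding start lay between, with 717 bp (696 to 740). Widths over 1 kb were found for 13.1% (10.3 to 16.5%) of distant peaks and 31.9% (30.5 to 33.3%) of the others, and widths under 500 bp for 28.0% and 11.7%. The gap was present in each of 4 bins of WT fold, cut at 4.13, 5.14 and 6.70 so that the whole list fills them evenly. From bin 1 (lowest) to bin 4 the medians were 590.5, 594, 597 and 723.5 bp for distant peaks and 718.5, 755, 802 and 977 bp for the others. Other peaks off chromosome 8 and not at a listed coding start were closer, with 682, 643, 710 and 864.5 bp. In bin 2 their interval (615 to 678) overlapped that of distant peaks (555 to 646), and in the other bins it did not. Folds differed less. The median was 4.88 (4.72 to 5.04) for distant peaks and 5.18 (5.11 to 5.24) for the others, and the lower quartiles were 4.13 in both. The whole pileup of fragments and the local background recovered from fold and p had medians of 59 and 11.1 at distant summits, against 73 and 13.5 at the others. Pileup and background both move with width, and their part in it was not tested.

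**Figure D1:**
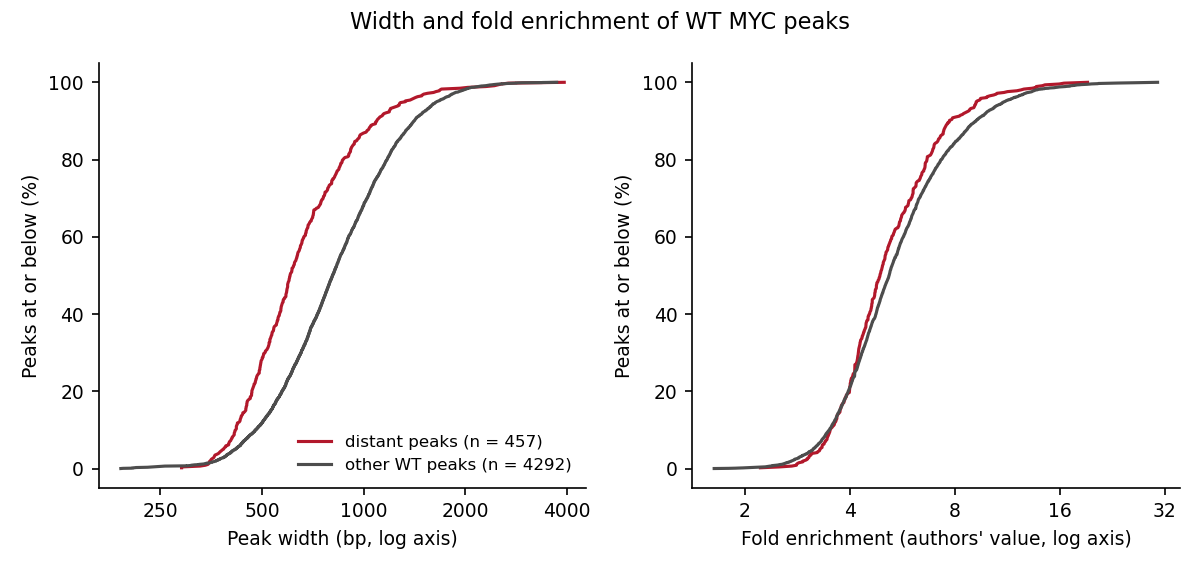
Cumulative share of peaks in percent (vertical axis) against peak width in bp (left, log axis) and the authors' fold enrichment (right, log axis) for the 457 distant WT peaks (red) and the 4292 other WT peaks (grey). The width curves stand apart, with medians of 606 and 810 bp, while the fold curves lie close together, with medians of 4.88 and 5.18.

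Width differed by place. At internal coding starts the median was 842.5 bp (766 to 972, n = 36), close to the 854 bp of the 2661 other WT peaks at a listed coding start. At non-coding gene ends or starts it was 697.5 bp (607 to 831, n = 58). Elsewhere inside protein-coding genes it was 586 bp (555 to 614, n = 148), elsewhere inside non-coding genes 614 bp (536 to 657, n = 55), and outside both 583 bp (535 to 611, n = 160). The intervals of the internal starts and of the last 3 places do not overlap. Median WT folds in the same order were 5.47, 4.89, 5.11, 4.57 and 4.75, with intervals that overlap.

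**Figure D2:**
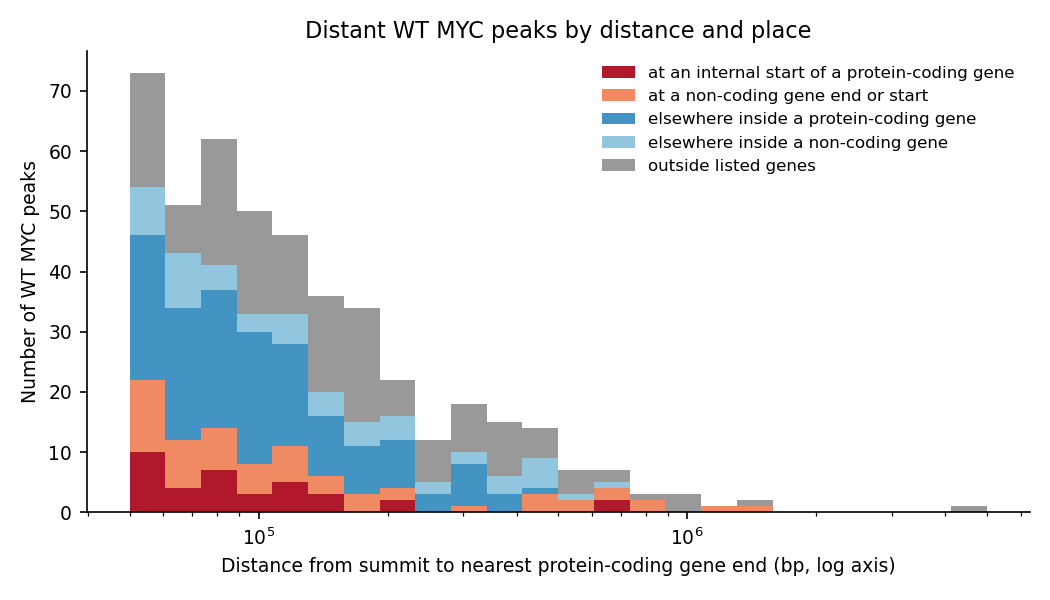
Number of distant WT peaks (vertical axis) by distance from the summit to the nearest protein-coding gene end in bp (log axis), stacked by place. The median is 104775 bp, 220 peaks lie at 50 to 100 kb, and 24 lie beyond 500 kb.

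The highest fold among distant peaks, 19.2, lay at chromosome 5, 154754425 to 154756356, inside LARP1, which encodes an RNA-binding protein that controls mRNAs of the translation machinery. Its summit was 433 bp from a listed internal LARP1 start and 76 bp from that of the divergent lncRNA LOC112267936, whose window is the first shown, and the peak also had a 3A peak with a fold of 4.79. This was the 23rd highest fold of the whole WT list. Of the 100 highest WT folds 7 belonged to distant peaks, and of the 10 highest none did. PALM2AKAP2, which encodes an anchoring protein for protein kinase A, reached a fold of 13.7, and its summit was 259 bp from an internal start (chromosome 9, 109779631 to 109780470). RAP1GAP2, a gene for a GTPase-activating protein of Rap1, followed with 13.3 at 66 bp (chromosome 17, 2975390 to 2976156), and DGLUCY, the D-glutamate cyclase gene, with 12.6 at 9 bp (chromosome 14, 91113833 to 91114436). None of these last 3 had a mutant peak.

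Further internal starts under distant peaks included those of transcription factor genes. RBPJ, the DNA-binding partner of Notch, had a fold of 9.46, the summit lying 300 bp from the start, RUNX1 had 6.19 at 414 bp and NFIB had 5.13 at 144 bp. PFKFB3, which makes the activator of the glycolytic enzyme phosphofructokinase, had 5.59 at 84 bp. These 4 were chosen after their values were seen. The 36 folds ran down to 3.12 at ANXA4. Only 3 of the 36 had a 3A peak, at LARP1, VRK2 (3A fold 2.70, WT fold 4.85) and RHOBTB1 (3A fold 2.79, WT fold 4.13), and none had a 7A peak. The interval of 3 of 36 (8.33%, 2.87 to 21.8%) holds the 15.1% of all WT peaks that had a 3A peak.

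Distant peaks at non-coding genes numbered 68 of 457 when only a gene end within 1 kb was asked for (14.9%, 11.9 to 18.4%). The background was 21.4% of all WT peaks, and the other WT peaks had 22.0% (20.8 to 23.3%). Those intervals do not overlap, but that of distant peaks does overlap the 18.9% (16.98 to 20.95%) of other peaks not at a listed coding start. The share varied with distance without a steady trend. It was 37 of 220 (16.8%) at 50 to 100 kb, 17 of 156 (10.9%) at 100 to 250 kb and 4 of 57 (7.02%) at 250 to 500 kb. Beyond 500 kb it was 10 of 24 (41.7%, 24.5 to 61.2%). Summits inside a non-coding gene, at its end or not, went the other way, with 23.4% (19.8 to 27.5%) of distant peaks and 14.7% (13.7 to 15.8%) of the others. Off chromosome 8 the share was 22.9% (19.13 to 27.1%) of distant peaks. It was 17.2% (15.4 to 19.21%) of other peaks there that were not at a listed coding start, and those intervals overlap. By class, 65 distant summits were at an lncRNA end, 3 at a tRNA gene and 1 at a microRNA gene (MIR6090), and a peak can count in more than 1 class. No distant summit was within 1 kb of a snoRNA, snRNA or rRNA gene end, where a count of 0 of 457 allows up to 0.834% by the Wilson interval. The other WT peaks had 24 at snoRNA genes (0.559%), 4 at snRNA genes (0.0932%), 42 at tRNA genes (0.979%) and none at rRNA genes. The snoRNA and snRNA shares lie below 0.834%, so the counts of 0 do not set distant peaks apart. The 3 tRNA peaks are 0.656% of distant peaks.

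PVT1, the lncRNA gene next to MYC, had the highest fold of these after LARP1. Its peak at chromosome 8, 127793847 to 127796407, had a WT fold of 14.3, was 2561 bp wide, and had its summit 38 bp from the PVT1 end and 51611 bp from MYC, so it only just met the distance rule. The threonine tRNA gene TRT-TGT2-1 followed with 13.7 at 588 bp (chromosome 1, 222465270 to 222466027). LINC00839 had 12.04 at 107 bp (chromosome 10, 42474902 to 42476292) and LINC01357 10.6 at 130 bp (chromosome 1, 112849343 to 112850889), in a region whose nearest protein-coding gene is the lactate transporter gene SLC16A1, 62120 bp away. MIRLET7A1HG, the host of 3 let-7 microRNAs, had 10.5 at 334 bp, and FIRRE, an X-linked lncRNA linked to nuclear organisation, had 8.88 at 20 bp (chromosome X, 131830394 to 131830827).

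The other leading peaks of this kind lay at LOC102723696 (WT fold 8.82), LINC03086 (7.71), DPP10-AS1 (7.44), LINC01117 (7.42, summit 4 bp from the gene end), CNIH3-AS2 (7.41), LOC124901941 (7.40), DNAH17-AS1 (7.35) and LOC105378477 (6.94). Of the 15 with the highest WT fold, LARP1 with LOC112267936 and MIRLET7A1HG alone had a 3A peak, and over all 68 the count was 9 with 3A and 1 with 7A. The 9 of 68 can be read against the 15.1% of all WT peaks with a 3A peak.

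Genes of 3 lists of non-coding genes were checked for distant peaks. How many of them lie more than 50 kb from protein-coding gene ends was not counted. The share over all non-coding genes was not counted either, so the counts cannot be called few or many. Of 20 microRNA host genes 5 had any WT peak at an end or inside, and 2 of these, MIR34AHG and MIR99AHG, had a distant one. Of 29 cancer-linked lncRNA genes 7 had a WT peak, and PVT1, LINC-PINT, DLEU1 and DLEU2 had a distant one. DLEU1 and DLEU2 share a peak, its fold 5.49 and its summit 156 bp from the DLEU2 end. Of 34 snoRNA host genes 25 had a WT peak, and 1, SNHG14, had a distant one (5.16), 54759 bp inside the gene. Many snoRNA hosts are known MYC targets. Of the 7 genes with a distant peak in these lists, MIR99AHG alone had one with a 3A peak.

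Hosts of let-7 and miR-34a are shown because both microRNA families are known to lower MYC itself, and let-7 is also known to be lowered by MYC. The mature RefSeq sequences follow, 5′ to 3′, with the seed (bases 2 to 8) in capitals. The first 3 come from MIRLET7A1HG, the next from MIR99AHG and the last from MIR34AHG.
hsa-let-7a-5p: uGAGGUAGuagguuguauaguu
hsa-let-7f-5p: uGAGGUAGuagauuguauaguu
hsa-let-7d-5p: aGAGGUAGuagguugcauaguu
hsa-let-7c-5p: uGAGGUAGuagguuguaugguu
hsa-miR-34a-5p: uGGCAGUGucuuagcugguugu

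The 4 let-7 sequences share the seed GAGGUAG, and that of miR-34a-5p is GGCAGUG. The MIRLET7A1HG peak (chromosome 9, 94165579 to 94167217) had a 3A fold of 4.40 and a WT fold of 10.5, was 1639 bp wide, and lay 9365 bp from the let-7a-1 hairpin and 12242 bp from that of let-7d. In MIR99AHG the peak (chromosome 21, 16563615 to 16564271) was 23992 bp from the let-7c hairpin and 67824 bp from the nearer end of its host, so it was not at a listed gene end, and it had a 3A fold of 4.37 and a WT fold of 4.97. At MIR34AHG the summit lay 5 bp from the gene end, with a WT fold of 4.76 and no mutant peak, and 30566 bp from the miR-34a hairpin. MIRLET7A1HG was not in the list of hosts and enters by its fold.

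The next question was how often the mutants had a peak at the same place. A 3A peak overlapped 53 of 457 distant WT peaks by at least 1 bp (11.6%, 8.98 to 14.9%), against 15.1% of all WT peaks and 15.5% (14.4 to 16.6%) of the other WT peaks. The intervals of distant and other peaks overlap. The 53 made up 7.39% of the WT peaks with a 3A peak. Seen from the 3A list, 68 of 845 peaks (8.05%, 6.40 to 10.1%) were themselves more than 50 kb from protein-coding gene ends. Of these 68, 55 overlapped a WT peak, and how many of all 845 did so was not counted. The 3A folds at the 53 sites ran from 2.23 to 8.15 with a median of 3.49 in the 3A list, and the WT folds there had a median of 5.00 in the WT list. The local background recovered at these 53 sites had a median of 14.96, against 10.6 at distant peaks without 3A, and 38 of the 53 lay above the median of all distant peaks. Its part in the overlap was not tested.

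Among the other WT peaks the share with 3A was highest in the top bin of WT fold, and the gap to distant peaks was widest there. In bin 4, 14 of 88 distant peaks had a 3A peak (15.9%, 9.72 to 25.0%), against 343 of 1099 other peaks (31.2%, 28.5 to 34.01%), and those intervals do not overlap. In bin 1 the shares were 11.7% (7.08 to 18.6%) and 8.33% (6.82 to 10.1%). In bin 2 they were 11.3% and 9.86%, and in bin 3 they were 8.41% and 11.9%. Other peaks of bin 4 at listed coding starts had a 3A peak in 37.0% (33.4 to 40.6%) of 687. The 384 other peaks of bin 4 that were not at a coding start had 21.1% (17.3 to 25.5%), an interval that overlaps that of distant peaks. Over all folds, peaks off coding starts but not distant had 11.4% (9.87 to 13.1%), against 11.6% for distant peaks. Within bin 4 the folds still differed, with a median of 7.85 for distant and 8.55 for other peaks.

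**Figure D3:**
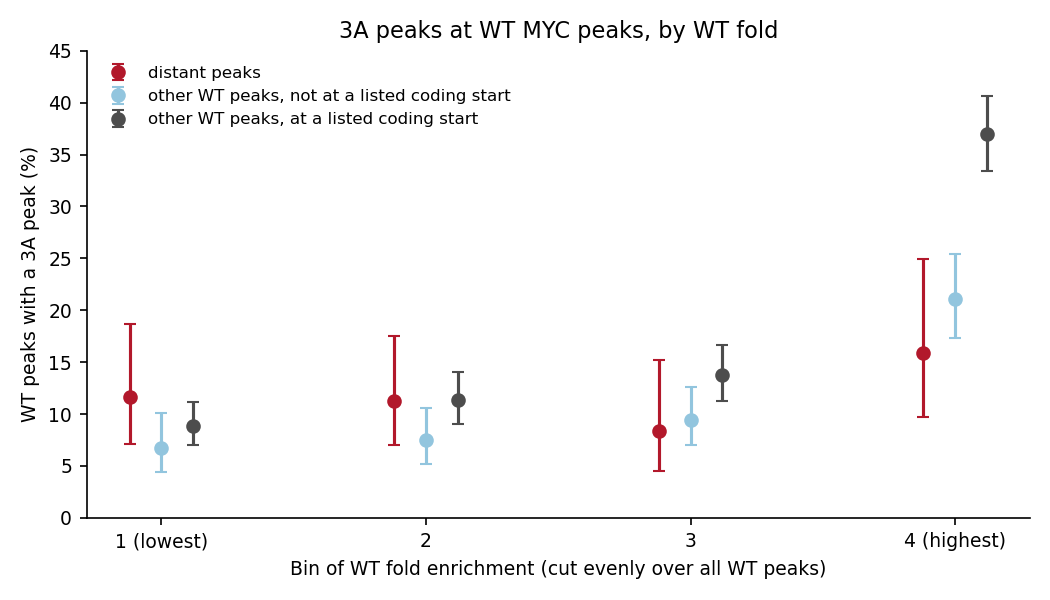
Share of WT peaks with a 3A peak in percent (vertical axis), by bin of WT fold enrichment (horizontal axis), for distant WT peaks (red), other WT peaks not at a listed coding start (light blue) and other WT peaks at one (dark grey), the last 2 off chromosome 8. Bars are Wilson 95% intervals. In bin 4 distant peaks stand at 15.9%, below the 37.0% of peaks at coding starts, and in bin 1 all 3 intervals overlap.

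By place, 3A peaks were at 12 of the 55 distant peaks inside non-coding genes but away from their ends (21.8%, 12.9 to 34.4%), at 14 of 148 inside protein-coding genes (9.46%), at 18 of 160 outside genes (11.3%), and at 6 of 58 at non-coding ends or starts (10.3%). These intervals overlap. By distance the shares were 8.18% of 220 peaks at 50 to 100 kb, 13.5% of 156 at 100 to 250 kb, 17.5% of 57 at 250 to 500 kb and 16.7% of 24 beyond 500 kb. Only 4 peaks make up that last share.

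The strongest 3A peak on a distant site lay at chromosome 16, 21520230 to 21520798, with its WT summit 135 bp from the end of the pseudogene SLC7A5P2. Reads from near-identical copies can be placed at a pseudogene, so this site is given as uncertain. It was 76629 bp from METTL9, a histidine methyltransferase gene, with a 3A fold of 8.15 and a WT fold of 16.4. Others among the 10 highest 3A folds were at LARP1 and 108044 bp from TPTE on chromosome 21, 10413325 to 10413786 (3A fold 4.67, WT fold 7.84). Lower 3A folds were found at sites 143697 bp from CCND1, the cyclin D1 gene (4.55 in 3A, 5.00 in WT), 61372 bp from the dopamine receptor gene DRD1 (4.42 in 3A, 9.17 in WT), at MIRLET7A1HG and in MIR99AHG. The last of the 10 were inside PALLD, which encodes the actin-binding protein palladin (4.17 in 3A, 6.74 in WT), and 261663 bp from TGFB2, a gene for a TGF-beta ligand (4.09 in 3A, 5.77 in WT). So 2 of the 10 lay inside a protein-coding gene.

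Of the 10 distant peaks with the highest WT fold, the first at LARP1 and the site near METTL9 had a 3A peak. This can be read against 15.1% of all WT peaks and, in bin 4, 15.9% of distant and 31.2% of other WT peaks. The other 8 of the 10 had no 3A peak. Besides those at PVT1, PALM2AKAP2, TRT-TGT2-1, RAP1GAP2 and DGLUCY, these were a peak 194274 bp from UACA with a WT fold of 15.9 (chromosome 15, 70459886 to 70460620), one in the lncRNA LOC105375771, 78481 bp from the stress-responsive gene NDRG1, with 14.5 (chromosome 8, 133375360 to 133376107), and one inside TRERF1, a zinc finger gene, with 12.4 (chromosome 6, 42338187 to 42339304). Of the 10, 5 lay inside a protein-coding gene.

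A 7A peak overlapped 12 distant WT peaks (2.63%, 1.51 to 4.53%), against 1.03% of all WT peaks and 37 of the 4292 others (0.862%, 0.626 to 1.19%). Those intervals do not overlap, but that of distant peaks does overlap the 1.34% (0.869 to 2.06%) of the 1493 other peaks not at a listed coding start. By distance the count was 2 of 220 (0.909%) at 50 to 100 kb, close to the other peaks, 5 of 156 (3.21%) at 100 to 250 kb, 3 of 57 (5.26%) at 250 to 500 kb and 2 of 24 (8.33%) beyond, each with a wide interval. The 12 were 24.5% of the 49 WT peaks with a 7A peak, where distant peaks are 9.62% of the WT list. Seen from the 7A list, 18 of 63 nuclear peaks (28.6%, 18.9 to 40.7%) were more than 50 kb from protein-coding gene ends. Of the 18, 12 overlapped a WT peak, and how many of all 63 did so was not counted. The 12 WT peaks had folds from 3.48 to 6.08, and none was in bin 4. The recovered background was above the median of distant peaks at 10 of the 12, with a median of 16.1 against 11.0 at distant peaks without 7A, and its part in the overlap was not tested. With 3A as well, 9 of the 12 were present in all lists (1.97% of distant peaks, against 0.905% of all WT peaks).

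Of the 9 sites in all 3 lists, those in TENM2 and ZNF469 lay inside a protein-coding gene and the rest did not. The 7A, 3A and WT folds, each in its own list, were 4.41, 4.08 and 5.87 inside TENM2, a teneurin cell adhesion gene, at chromosome 5, 168085822 to 168086675. They were 4.29, 4.55 and 5.00 at the site 143697 bp from CCND1 (chromosome 11, 69497050 to 69497660). A site 434009 bp from MYC, inside the lncRNA LOC124902020 beyond PVT1, had 4.17, 3.49 and 4.73 (chromosome 8, 128176582 to 128177231). Other sites were 285045 bp from the homeobox gene IRX1 (3.65, 3.01 and 5.08), 116209 bp from CEBPB, a bZIP transcription factor gene (3.50, 3.93 and 3.48), inside ZNF469 (3.42, 3.75 and 6.08) and 100748 bp from SMAD6, an inhibitor of BMP signalling (3.30, 3.65 and 4.51). The last 2 were neighbours near MN1, described with the groups below. The sites with 7A and WT but no 3A peak were 95515 bp from DRD1 (7A fold 3.53, WT fold 3.85), 315465 bp from the homeobox gene MEIS1 (3.23 in 7A, 4.99 in WT) and inside SMYD3, a lysine methyltransferase gene (3.11 in 7A, 5.601 in WT).

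Some mutant peaks far from protein-coding gene ends had no WT peak. They numbered 13 of 68 for 3A and 6 of 18 for 7A, and 2 of the 6 overlapped a 3A peak, near CHD2 and TBL1XR1. The share of each whole mutant list without a WT peak was not counted, so these numbers cannot be called high or low. Near CHD2, 96289 bp from its end by the 7A summit, the 7A fold was 3.23 and the 3A fold 3.63. Near TBL1XR1, 276986 bp from its end by the 7A summit, they were 2.88 and 2.91.

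By chromosome, distant peaks made up between 2.23% and 19.3% of the WT peaks, with 9.62% over all. Chromosome 8 had the highest share, 33 of 171 (19.3%, 14.1 to 25.9%), followed by chromosome 5 with 37 of 230 (16.1%, 11.9 to 21.4%) and chromosome 6 with 29 of 205 (14.1%, 10.0 to 19.6%). Chromosome 19, which has the most protein-coding genes per Mb in the table (24.8), had the lowest, 5 of 224 (2.23%, 0.957 to 5.12%). Chromosomes 14 and 17 had 6.10% and 6.76%. How much of each chromosome lies more than 50 kb from a gene end was not measured, so these shares say nothing of a preference. Chromosomes 8 and 5 had similar densities of 4.92 and 4.98 genes per Mb, as did chromosome 3 with 5.38 and a share of only 6.84% (4.37 to 10.6%).

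**Figure D4:**
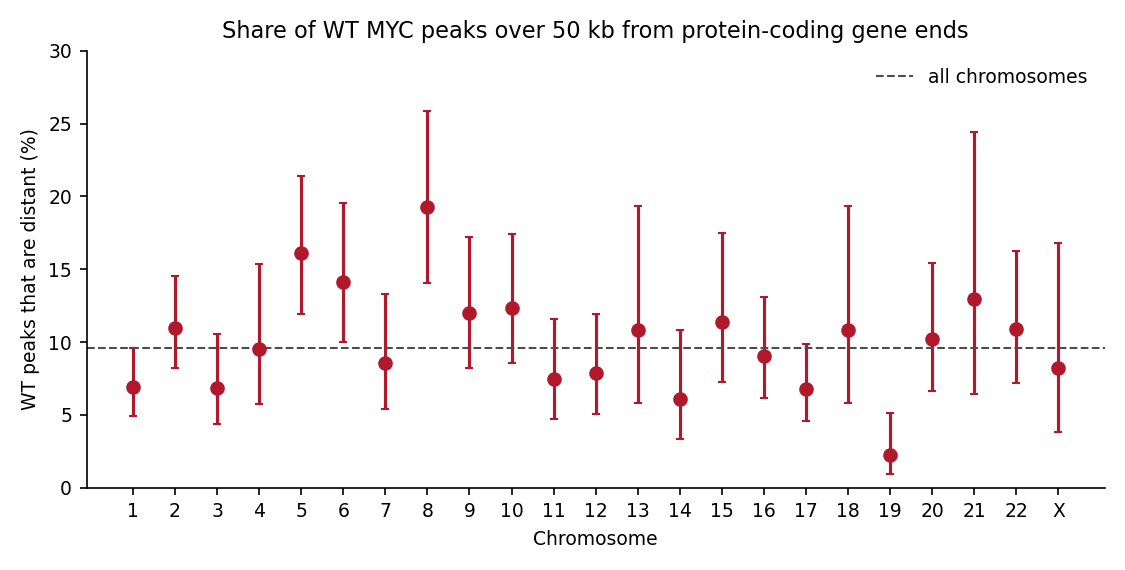
Share of WT peaks that are distant in percent (vertical axis) for each chromosome (horizontal axis), with Wilson 95% intervals and the share over all chromosomes as a dashed line. Chromosome 8 stands highest at 19.3% and chromosome 19 lowest at 2.23%.

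The median distance to a protein-coding gene end was 104775 bp, with quartiles of 70234 and 183293 bp. The farthest peak lay near the start of the chromosome 22 sequence, 4566581 bp from OR11H1 (chromosome 22, 10961062 to 10961989, WT fold 4.03). The next was 1411621 bp from UQCRFS1 on chromosome 19, with its summit 241 bp from the end of LINC00662 (27793050 to 27794495), and its folds were 2.44 in 3A and 4.45 in WT. Then came 29497021 to 29498020 on chromosome 20 (WT fold 6.02), the LOC105378477 site on chromosome 10, 1284976 bp from SORCS1 (6.94), and 29740772 to 29741330 on chromosome 20 (3.57). The sites on chromosomes 20 and 22 and the one near TPTE on chromosome 21 lie by the centromeres or on the short arm, where repeated sequence makes read placement uncertain, and they are given as uncertain. The chromosome 22 summit was also 82 bp from a pseudogene end, and those on chromosome 20 were 141 and 636 bp from one.

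The 5 widest distant peaks were 2443 to 3933 bp. The first, inside GSE1 at chromosome 16, 85610966 to 85614898, is also the widest peak of the whole WT list, with a WT fold of 5.54. It covers a listed GSE1 start 1464 bp from its summit, beyond the 1 kb used for internal starts. Another peak of 2443 bp lay in the same gene (3.69). Between them in width were a peak inside RASA3, a Ras GTPase-activating protein gene (2686 bp, 3A fold 3.47, WT fold 8.81), the PVT1 peak, and 1 of 2504 bp on the short arm of chromosome 21 at 8994070 to 8996573 (3A fold 2.30, WT fold 3.06), whose recovered background of 43.5 was well above the median of 11.1. As a short-arm site, that peak is given as uncertain too.

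Most distant peaks, 379 of 457, had no other distant summit within 50 kb. The other WT peaks were left out of this count. There were 21 pairs, 8 groups of 3 and 3 groups of 4. The 36 peaks in the 11 larger groups had 3A peaks at 8 (22.2%, 11.7 to 38.1%) and 7A peaks at 3 (8.33%, 2.87 to 21.8%). This stands against 15.1% and 1.03% of all WT peaks, and 11.6% and 2.63% of all distant peaks. Of the 3 with 7A, 2 were in the group near MN1 and 1 in that near CEBPB, and peaks of a group are not independent. In the stretches of the 11 groups no other WT peak lay between the first and the last. Groups inside long protein-coding genes were in LRMDA, GSE1, KCNIP1 and RAP1GAP2, and the 3 peaks of RAP1GAP2 held the strong internal start (13.3) and 2 weaker neighbours (4.88 and 2.81). Outside them were groups in MIR3681HG near TRIB2 (WT folds 4.07 to 7.41, with 3A at 1 of 3), near FOXF1 and LINC00917 (4.61 to 4.91, none with 3A), near BASP1 (2.93 to 4.50) and at LOC100506532, with RXRA or COL5A1 nearest (5.61 to 8.29).

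The 3 groups of 4 differed in how their folds were spread. Near UACA on chromosome 15 the first peak had a WT fold of 15.9, and the other 3 had 4.03, 4.21 and 4.93, with a 3A peak (3.47) on the second peak only. Near CEBPB on chromosome 20 the WT folds were all between 3.40 and 3.98, and 3 of the 4 had a 3A peak with folds of 3.56, 3.93 and 3.18 in order of position. Around LINC01638, more than 500 kb from MN1 on chromosome 22, the WT folds were 3.46, 4.73, 3.75 and 4.72. The third and the fourth peaks had 7A folds of 2.75 and 3.01, and their 3A folds were 2.83 and 4.06, while the second, with the highest WT fold, had neither. The recovered backgrounds of these 4 sites were 24.2 to 30.9, above the median of 11.1 for distant peaks, and their part in the overlap was not tested.

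**Figure D5:**
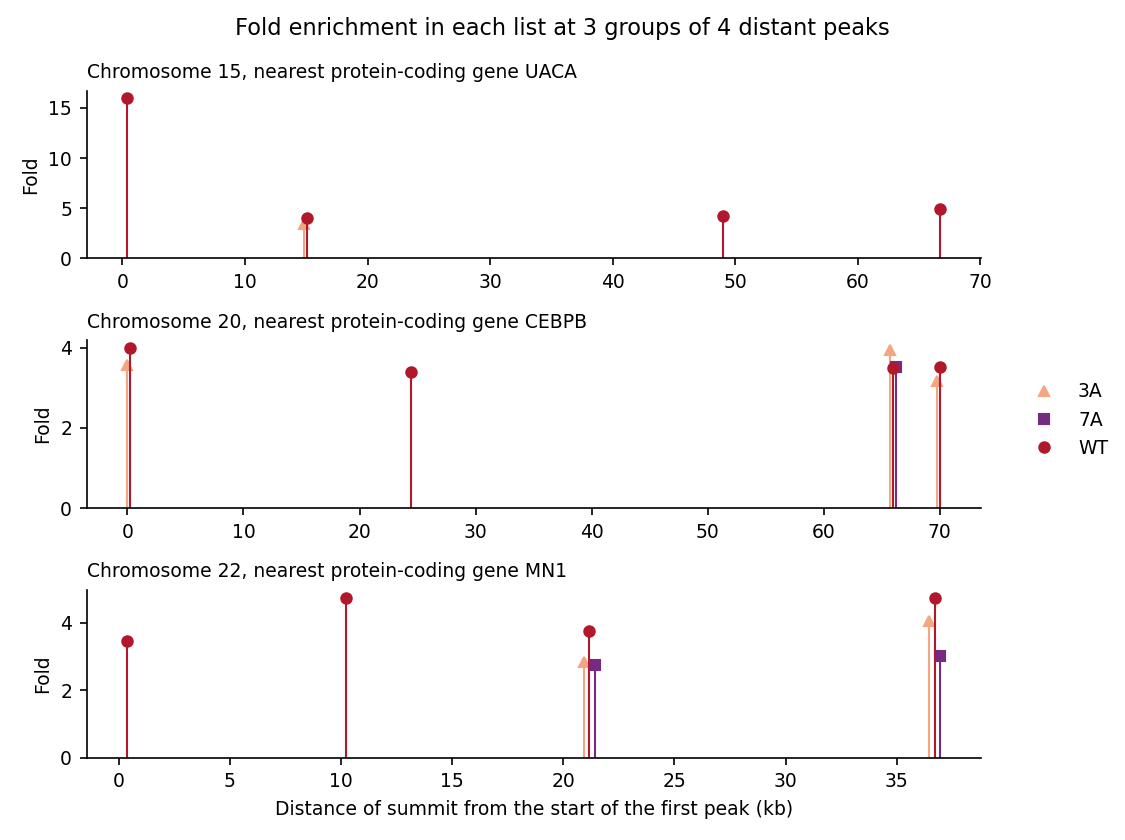
Fold enrichment in each protein's own list (vertical axis) at the 3 groups of 4 distant peaks, against the distance of the summit from the start of the first peak in kb (horizontal axis); 3A (triangles) and 7A (squares) markers are drawn slightly left and right of the WT marker (circles) they overlap. The group near UACA has 1 WT peak of 15.9 above the rest, and the groups near CEBPB and MN1 have even WT folds with mutant peaks at some of them.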

How the data were processed

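Chromatin immunoprecipitation with a reference exogenous genome was done in induced and uninduced cells. Per the labels, chromatin was fixed in 1% formaldehyde for 10 min and sheared to 200 to 500 bp. Tools in the submitters' processing notes are MACS2, Picard, SAMtools, Bowtie2 and cutadapt, with no version given, and 3 builds (hg38, hg19, mm10) are listed there with no role. How the libraries and controls were combined is not given in the sources used here. The authors deposited 1 narrowPeak list per induced protein, with the fold (a ratio to local background), the −log10 p-value and the −log10 q-value of each peak. The deposited score was not used. No spike-in scaling was added here.

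To settle the build, WT summits off chromosome 8 were set against listed coding starts of GRCh38.p14: 58.9% lay within 1 kb, and 2.36 to 2.56% did so once moved by 100000 bp. Gene spans came from the RefSeq table, used without strand, and starts from 35116 RefSeq windows, of 15842 protein-coding and 11462 lncRNA genes. Non-coding genes are those neither protein-coding nor pseudogenes. Summits are counted from 1, and peaks were shared if they overlapped by at least 1 bp. Pileup and background were solved jointly from the fold, read as pileup over background with 1 added to each, and from p, read as the tail of a Poisson law, which matched within 0.02 of a step between pileups for 4749 of 4749 WT peaks. The scripts were tested on simulated peaks. No test was run, since each protein has 1 list.

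Members, lists and rules were chosen with earlier results of these data known. Named are the peaks with the 10 highest WT and 3A folds, all with 7A, the 5 widest and farthest, the 15 highest at non-coding ends, those nearest the 50 kb limit, groups of at least 3, and members of the lists. One of these peaks is not reported here. A neighbouring gene need not be a target. Alternatives covered distance, overlap, windows, gene sets, merging and −log10 q. Software comprised matplotlib 3.10.9, pandas 2.3.3, scipy 1.17.1 and numpy 2.4.6 under Python 3.11.15.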

Additional observations from a re-analysis of the deposited data

How the results depend on the processing

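The number of distant peaks depends on the rule itself: it was 735 at more than 25 kb, 237 at more than 100 kb and 262 with summits inside protein-coding genes left out, against 457. With LOC genes dropped, peaks within 1 kb merged or a −log10 q of at least 5 or 10 it stayed between 409 and 471. At a −log10 q of at least 10 in all lists the share with 3A fell to 8.56%, where the other WT peaks had 12.03%, and the median WT fold was 5.06. At more than 100 kb the share with 3A was 14.8%, beside 15.1% of the other WT peaks. At 50 to 100 kb it was 8.18%. The share with 7A was 1.75 to 4.22% under the alternatives, above that of the other WT peaks in each setting where both were computed. The share at a non-coding gene end was 11.4% with a window of 500 bp and 29.1% with 5 kb. The other 31 values under alternatives stayed within the 95% interval of the reported value or, for numbers of peaks, within 1.5 times it. No paired analysis was possible because each protein has 1 list and not 1 per library, and for the same reason no replicate could be left out. Depth per library is unknown here, so a missing mutant peak may lie below detection.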
